A study of Mus musculus with 6 samples.

Results

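The adhesion genes described here are Cd44, Spn (which encodes CD43), Icam1, Itgal, Itgb2, Itga4, Itgb1, Itgb7 and Selplg, 9 of the 38293 genes measured by RNA-sequencing in 6 mouse B-cell tumors. They were taken by name, as receptors with which lymphocytes hold on to other cells and to matrix. The rule used no measured value, although earlier results of these data were known when the genes were chosen. Values are in RPKM, reads per kilobase of gene scaled for sequencing depth. All 9 passed the filter on low values, which asked for 0.5 RPKM or more in no fewer than 2 tumors. Every tumor arose in a C57BL6 mouse that carries Myc under the Eμ immunoglobulin enhancer, which drives the oncogene in B-lineage cells. The 4 miR-146a-sufficient tumors (genotype miR-146a+/+) came from mice labelled male. Replicates 1 and 2 were neck node tumors at 18 and 16 weeks, and replicates 3 and 4 were thymic tumors, both at 10 weeks. The 2 miR-146a-deficient tumors (miR-146a-/-) were thymic and came from mice with the label female, at 11 weeks for replicate 1 and 10 weeks for replicate 2. Genotype therefore cannot be told apart from the labelled sex, and only in part from tumor site and age. The RNA came from single cell suspensions of whole tumors, so cells other than tumor cells are included, and fewer cells of a type cannot be told apart from less RNA per cell.

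CD44 is a glycoprotein that binds the matrix polymer hyaluronan, and CD43 is a long, heavily glycosylated mucin that stands out from the leukocyte surface and can keep cells apart or help them bind. Integrins are pairs of an α and a β chain. The αL chain (Itgal) joins β2 (Itgb2) to make LFA-1, which grips ICAM-1 on other cells, while α4 (Itga4) joins β1 (Itgb1) to make VLA-4, a receptor for VCAM-1 and fibronectin, or β7 (Itgb7) to make the gut-homing receptor for MAdCAM-1. PSGL-1 (Selplg) is the main ligand of P-selectin and lets leukocytes roll on vessel walls. These receptors govern the entry of B cells into lymphoid tissue and their retention there, and the study set the tumors of the genotypes side by side to ask what loss of miR-146a does in Myc-driven lymphoma.

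A microRNA pairs with target transcripts mainly through its seed, bases 2 to 8 of the mature strand. The mature miR-146a-5p is shown with that seed in capitals, because it is the sequence that the deficient mice lack. It is given 5′ to 3′ from RefSeq, at chr11:43374435-43374456 of GRCm38.p6, minus strand. Beneath it stands the Itga4 site, with 7 flanking bases on each side. It is written as DNA on the plus strand of GRCm38, at chr2:79330813-79330834, and its capitals mark the 8 bases that match.

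miR-146a-5p: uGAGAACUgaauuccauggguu
Itga4 3′UTR: ggaatctAGTTCTCAgggggtc

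Itga4 was the only 1 of the 9 adhesion genes whose longest annotated 3′UTR (GENCODE M21) held a match of at least 7 bases to this seed, either AGTTCTC or GTTCTCA, read on the transcript strand. The letters occurred in 2136 of the 10684 tested coding genes with an annotated 3′UTR, or 19.99%. The Itga4 3′UTR is 6508 bases long, with the match starting at its base 4205, against a median of 1117 bases over those genes. The other 8 run from 165 bases for Itgb7 to 2992 bases for Cd44. A match is a description of the letters and not evidence of a working site. Mir146, the gene of the microRNA, stands at 0 in the file for every tumor, so it gives no check of the genotype labels.

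Total RPKM was alike in all libraries but 1. RPKM values summed to between 675516 and 788919 in 5 tumors and to 1932926 in deficient replicate 1, which fell to 692853 without the single gene Xist. Deficient replicate 2, labelled female, had a level of 24.6 RPKM for Ddx3y, a gene of the Y chromosome, which was at 17.9 to 23.0 in the sufficient tumors and at 0.130 in deficient replicate 1. Its label is therefore in doubt, and values without it are given below for the genes it moves most. The summed RPKM of 8 B-cell markers, among them Cd79a and Pax5, was 1100 to 1592 in the sufficient and 1097 to 1917 in the deficient tumors. Markers of thymic epithelium summed to 2.70 RPKM or less in every tumor, and its defining factor Foxn1 was at or near 0 in all 6, also in the tumors taken from the thymus.

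In none of the 9 adhesion genes did the level pass the test between genotypes. The test was limma on log2(RPKM + 1), two-sided, with Benjamini-Hochberg adjustment over the 12751 genes that passed the filter and a threshold of 0.05, and it called 8 of them, or 0.0627%. The lowest adjusted p among the adhesion genes was 0.893. At an unadjusted p under 0.05 the same fit counted 461 genes, and 0 of the 9. All fold changes below are on this log2 scale, deficient against sufficient unless the tumor site is named. The scale understates changes at low values. Their median over the 9 genes was -0.060 and over all tested genes 0.13, a shift that median-ratio scaling moves to -0.23 and -0.014, so small differences are to be read against it. With 4 tumors against 2, the smallest p of an exact two-sided permutation test is 0.133.

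By mean level the 9 genes ran from Itgb7 down to Itgal. Mean RPKM over the 6 tumors was 46.2 ± 25.1 (SD, n = 6) for Itgb7, 40.5 ± 12.2 for Itgb1 and 39.3 ± 5.80 for Selplg. Next came the genes from Itga4 at 19.7 ± 4.77 through Spn at 19.2 ± 6.04, Cd44 at 16.9 ± 1.51 and Itgb2 at 16.8 ± 3.85 to Icam1 at 15.6 ± 5.77. Itgal, the αL chain, stood lowest in every tumor, at 3.74 ± 1.67. The ranges over tumors separated Selplg from Itga4 and Icam1 from Itgal, and all other neighbours in this order overlapped. Single tumors broke the order of the means, as Itgb7 in deficient replicate 2 and Itgb1 in sufficient replicate 1 fell to 16.9 and 20.1, within the ranges of Itga4 and Spn. The highest gene was Selplg in sufficient replicates 1 and 4, Itgb7 in sufficient replicates 2 and 3 and deficient replicate 1, and Itgb1 in deficient replicate 2.

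**Figure D1:**
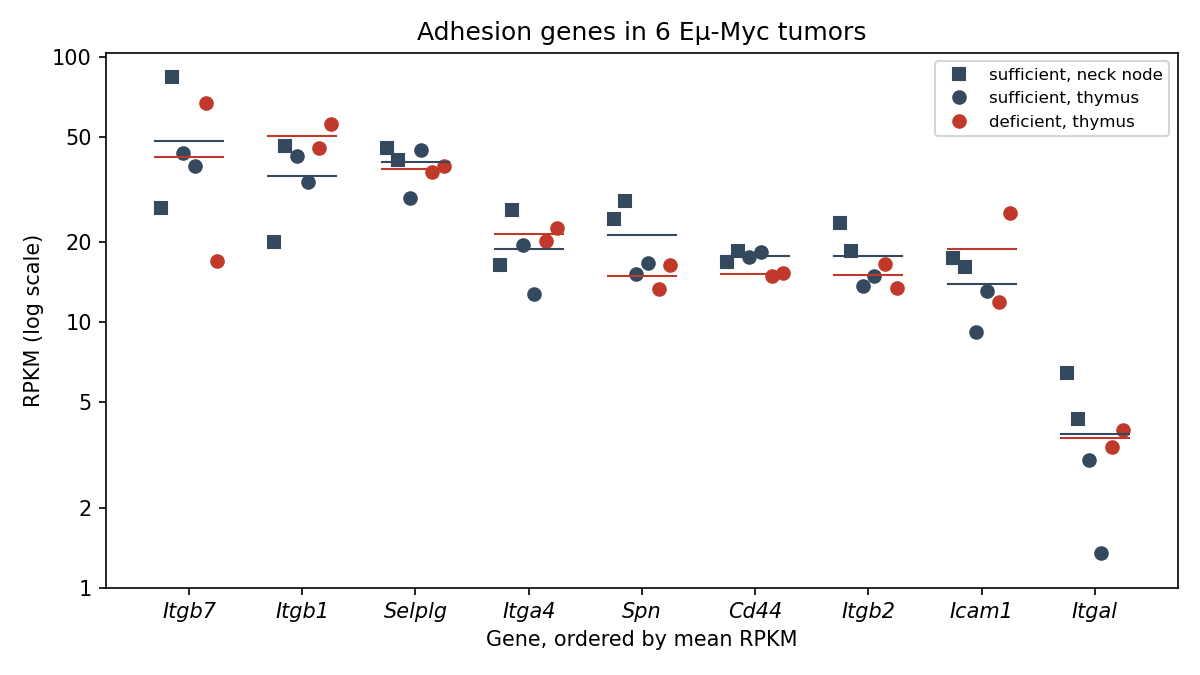
RPKM (log axis) of the 9 adhesion genes in each of the 6 tumors, with squares for neck node and circles for thymic tumors, dark for sufficient and red for deficient, and lines at the mean of each genotype. The Cd44 points sit between 14.9 and 18.6, while those of Itgb7 run from 16.9 to 84.1 and Itgal lies under every other gene.

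Cd44 was the steadiest of the 9. The gene lies on chromosome 2 from 102811141 to 102901665 on the minus strand of GRCm38. Its RPKM in sufficient replicates 1 to 4 was 16.8, 18.6, 17.6 and 18.3, and in the deficient tumors it was 14.9 and 15.4. Both deficient values lay just under all 4 sufficient ones. The mean was 15.2 ± 0.310 (SD, n = 2) against 17.8 ± 0.795 (SD, n = 4), a ratio of 0.851, with a log2 fold change of -0.22 (standard error, SE, 0.19, limma adjusted p = 0.893). The exact permutation p was 0.133, the smallest the design can give. Cd44 was the 1 adhesion gene whose groups did not overlap with the deficient tumors lower, and 0 of 9 did so with the deficient tumors higher. Among all tested genes these shares were 2.09% lower and 9.15% higher. The value was -0.23 with thymic tumors only and -0.24 without deficient replicate 2.

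The spread of Cd44 over the 6 tumors (SD of log2(RPKM + 1) 0.12) ranked 420 from the lowest of 12751 tested genes. It exceeded the spread of 3.82% of the 4004 genes within 2-fold of its level, whereas Itgb7, with an SD of 0.82, exceeded 95.8% of the 2116 genes within 2-fold of its own. Selplg followed Cd44 at 27.8% of its 2418 genes. The highest RPKM of Cd44 was 1.24 times the lowest, against 4.96 times for Itgb7 and 4.79 times for Itgal. These ranks describe the 6 tumors together, whatever their genotype or site.

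**Figure D2:**
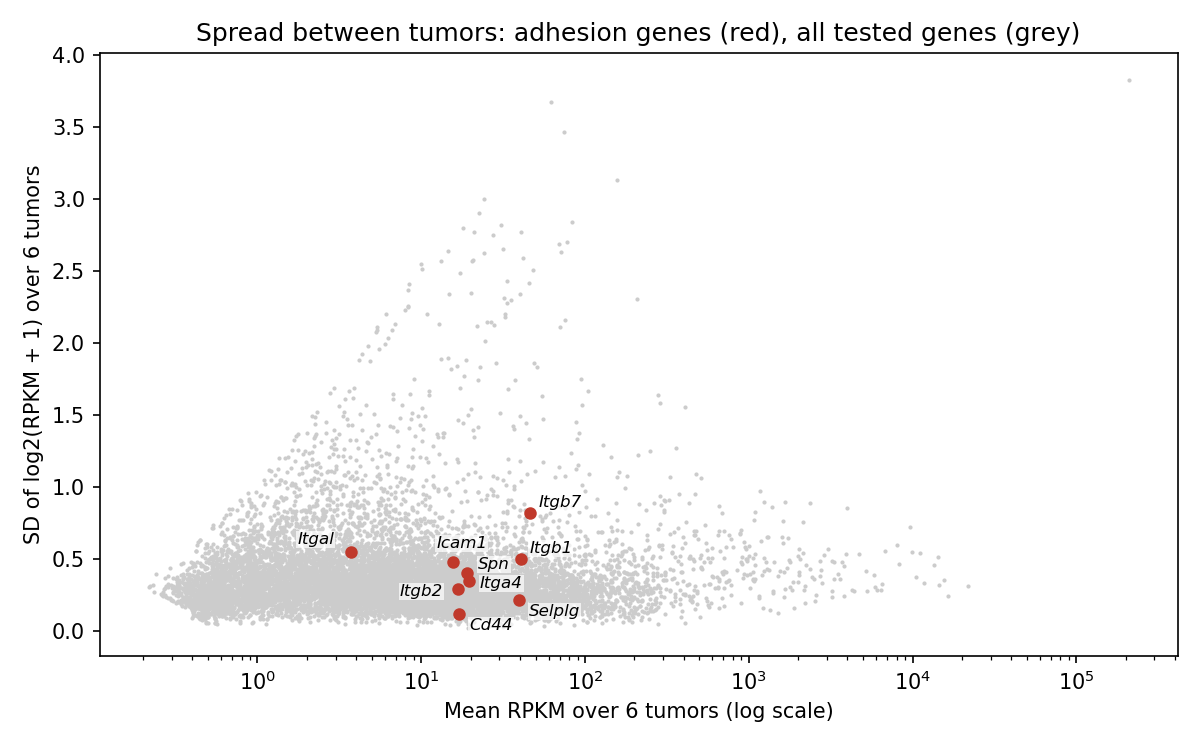
SD of log2(RPKM + 1) over the 6 tumors against mean RPKM (log axis) for the 12751 tested genes in grey and the 9 adhesion genes in red. Cd44 lies at the lower edge of the cloud with an SD of 0.12, and Itgb7 lies above most genes of its level with an SD of 0.82.

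Spn, the CD43 gene, was highest in the neck node tumors and overlapped between the genotypes. It lies on chromosome 7 from 127132232 to 127137823, minus strand. The neck node tumors held 24.5 and 28.7 RPKM, the sufficient thymic tumors 15.2 and 16.8, and the deficient thymic tumors 13.3 and 16.5. The thymic tumors of the genotypes overlapped, and both neck node tumors stood above all 4 thymic ones. By genotype the means were 14.9 ± 2.26 (SD, n = 2) and 21.3 ± 6.40 (SD, n = 4), a log2 fold change of -0.45 (SE 0.29, limma adjusted p = 0.893, exact permutation p = 0.267). With thymic tumors only it was -0.099, and without deficient replicate 2 it was -0.59. Between neck node and thymus within the sufficient tumors the means were 26.6 ± 2.98 and 16.0 ± 1.15 (SD, n = 2 each), a log2 fold change of 0.70 (SE 0.24, limma adjusted p = 0.601). The study also measured the CD43 transcript by RT-qPCR in a larger set of tumors and reported it higher in the deficient ones. The genotype fold change here was negative, from fewer tumors and by another measure.

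The balance of Cd44 and Spn differed from tumor to tumor. The ratio of Cd44 to Spn was 0.687 and 0.647 in the neck node tumors, 1.16 and 1.09 in the sufficient thymic tumors and 1.12 and 0.932 in the deficient ones. It was under 1 in both neck node tumors and in deficient replicate 2. Its mean log2 difference between genotypes was 0.24 over all tumors and -0.14 over thymic tumors only (exact permutation p = 0.667, Benjamini-Hochberg adjusted over 5 ratios 0.8).

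For the LFA-1 chains and their ligand the genotypes overlapped. Itgal lies on chromosome 7 from 127296260 to 127335138, plus strand, and read 6.44 and 4.30 RPKM in the neck node tumors, 3.03 and 1.35 in the sufficient thymic tumors and 3.38 and 3.93 in the deficient ones. The deficient values fell inside the sufficient range, with a log2 fold change of 0.081 (SE 0.42, limma adjusted p = 0.978), which was 0.60 with thymic tumors only. It was -0.057 under median ratios and -0.052 under quantile normalization, a move about as large as that of the median of all genes, below which it lay with and without scaling. Without deficient replicate 2 it was -0.0053.

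Itgb2, whose β2 chain also serves the myeloid integrins, lies on chromosome 10 from 77530252 to 77565708, plus strand. It read 23.6 and 18.5 RPKM in the neck node tumors, 13.7 and 14.9 in the sufficient thymic tumors and 16.5 and 13.5 in the deficient ones. The log2 fold change by genotype was -0.20 (SE 0.26, limma adjusted p = 0.900) and 0.060 with thymic tumors only. It was -0.066 without deficient replicate 2. The Itgal to Itgb2 ratio was 0.272, 0.232, 0.221 and 0.0904 in the sufficient tumors and 0.205 and 0.291 in the deficient ones, so the β2 transcript exceeded the αL transcript in every tumor. The mean log2 difference of this ratio between genotypes was 0.37 (exact permutation p = 0.8, adjusted over 5 ratios 0.8), and no p under 0.133 was possible. It was 0.79 with thymic tumors only, 0.020 without sufficient replicate 4 and 0.12 without deficient replicate 2.

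Icam1, the LFA-1 ligand, lies on chromosome 9 from 21015985 to 21028817, plus strand. It read 17.4 and 16.1 RPKM in the neck node tumors, 9.15 and 13.1 in the sufficient thymic tumors, 11.9 in deficient replicate 1 and 25.7 in deficient replicate 2. The last is the highest value of the 6, and the first deficient tumor fell within the sufficient range. The log2 fold change was 0.35 (SE 0.35, limma adjusted p = 0.893). It was 0.63 with thymic tumors only, where Itgal and Itgb2 were positive too, -0.18 without deficient replicate 2 and 0.87 without deficient replicate 1. An antisense gene model, Gm47079, overlaps 11.7% of the exon bases of Icam1, and the library kit does not mark strand, so reads of the pair cannot be told apart there.

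For all 3 chains of the α4 integrins the genotypes overlapped. Itga4 lies on chromosome 2 from 79255426 to 79333123, plus strand, and read 16.5, 26.5, 19.6 and 12.8 RPKM in sufficient replicates 1 to 4 and 20.3 and 22.6 in the deficient tumors. Both deficient values lay inside the sufficient range. The log2 fold change was 0.22 (SE 0.29, limma adjusted p = 0.900, exact permutation p = 0.533), so the 1 adhesion gene with the seed match did not pass the test. The antisense gene Cerkl overlaps 8.04% of its exon bases.

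Itgb1 is on chromosome 8 from 128685654 to 128733200, plus strand. It read 20.1, 46.1, 42.2 and 33.9 RPKM in the sufficient tumors and 45.3 and 55.6 in the deficient ones, and only sufficient replicate 2 reached into the deficient range. Its log2 fold change of 0.55 was the highest of the 9 (SE 0.33, limma adjusted p = 0.893, exact permutation p = 0.267). The fold change became 0.41 without deficient replicate 2. Its sign held in all 16 alternative settings, between 0.31 and 0.70, though changes of the filter and the trend cannot move it.

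Itgb7, on chromosome 15 from 102215995 to 102231944 on the minus strand, gave the widest range. The sufficient tumors held 26.99, 84.1, 43.2 and 38.9 RPKM, and the deficient tumors held 66.9 and 16.9, the second-highest and the lowest value of the 6. The log2 fold change of -0.38 (SE 0.56, limma adjusted p = 0.909) became 0.58 without deficient replicate 2 and -1.34 without deficient replicate 1.

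The β chains that compete for α4 stood in a different balance in 1 tumor. The Itgb1 to Itgb7 ratio was 0.744, 0.549, 0.975 and 0.870 in the sufficient tumors and 0.678 in deficient replicate 1, and it was 3.28 in deficient replicate 2. Only that tumor held more Itgb1 than Itgb7. The Itga4 to Itgb7 ratio was likewise 1.33 there and 0.303 to 0.610 in the other 5 tumors. The mean log2 differences between genotypes of 0.96 and 0.63 rested on that tumor, and were -0.18 and -0.44 without it. The Itga4 to Itgb1 ratio was under 1 in every tumor, at 0.819, 0.575, 0.464 and 0.377 in the sufficient and 0.447 and 0.406 in the deficient tumors. The tests of these 3 ratios could not have reached the threshold, since the smallest possible p is 0.133 (exact permutation p = 0.533 for Itgb1 to Itgb7 and for Itga4 to Itgb1, 0.667 for Itga4 to Itgb7, all 0.8 adjusted over 5 ratios).

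**Figure D3:**
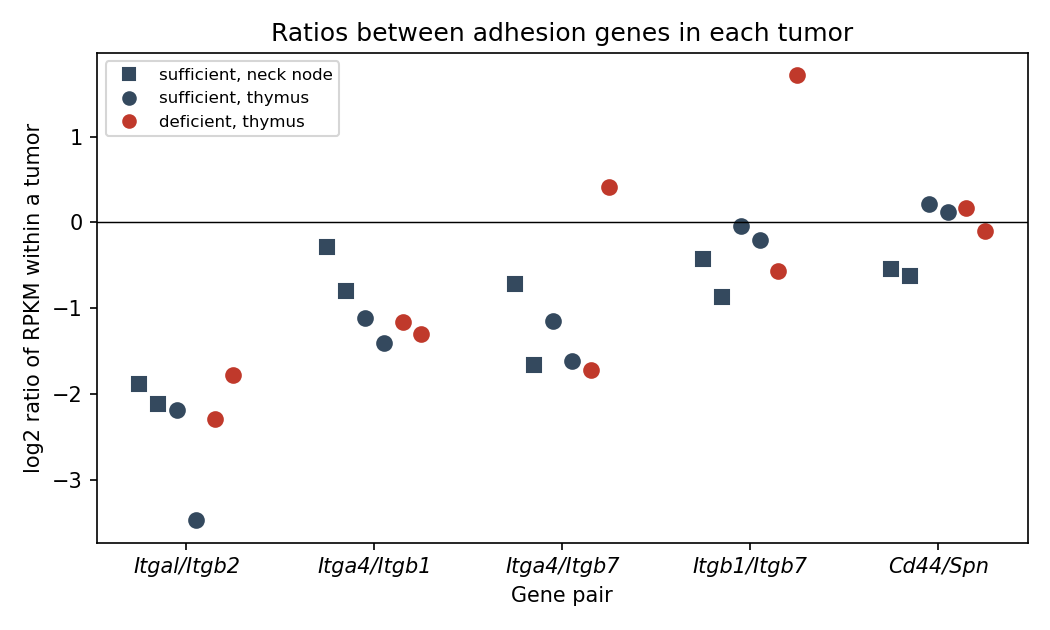
log2 ratio of RPKM between 5 pairs of adhesion genes within each of the 6 tumors, with squares for neck node and circles for thymic tumors, dark for sufficient and red for deficient. The Itgb1/Itgb7 point of deficient replicate 2 stands at 1.71 while the other 5 tumors lie below 0, and the neck node tumors lie lowest for Cd44/Spn.

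Selplg lies on chromosome 5 from 113818536 to 113832644, minus strand. It read 45.2, 41.0, 29.5 and 44.5 RPKM in the sufficient tumors and 36.8 and 38.9 in the deficient ones. The deficient values again fell inside the sufficient range. The means were 37.9 ± 1.44 (SD, n = 2) and 40.0 ± 7.30 (SD, n = 4), with a log2 fold change of -0.060 (SE 0.23, limma adjusted p = 0.963). It was 0.061 with thymic tumors only.

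Tumor site was compared within the sufficient group, neck node against thymus. Of the 9 genes, 4 were higher in both neck node tumors than in both thymic tumors, namely Spn, Icam1, Itgal and Itgb2, and 0 were lower in both. Among the 12255 genes tested there, 27.9% did not overlap with neck node higher and 12.6% with neck node lower. None of the 9 passed the test, which called 0.155% of all genes. Itgal measured 5.37 ± 1.51 RPKM in the neck nodes and 2.19 ± 1.19 in the thymus (SD, n = 2 each), a log2 fold change of 1.03 (SE 0.37, limma adjusted p = 0.601). Icam1 measured 16.8 ± 0.897 and 11.1 ± 2.82, a log2 fold change of 0.57, and Itgb2 measured 21.1 ± 3.61 and 14.3 ± 0.830, a log2 fold change of 0.52 (limma adjusted p = 0.650 for both). Cd44 differed least, at -0.022 (SE 0.23). At an unadjusted p under 0.05 the fit counted Spn and Itgal among the 9, and 964 genes in all. The median over the 9 genes was 0.38, with 7 positive, and over all tested genes 0.10, with 61% positive.

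Neutrophil genes moved with the same split. The 9 neutrophil markers, which include the granule genes Ngp, Camp and Ltf, summed to 1639 and 1685 RPKM in the neck node tumors. In the sufficient thymic tumors the sum was 206 to 237, and in the deficient tumors 108 to 277. All 9 were higher in both neck node tumors, and 6 passed the test: S100a8, S100a9, Ngp, Camp, Ltf and Retnlg. Among all genes tested by site, 27.9% did not overlap in that direction and 0.155% passed. Ngp had the lowest adjusted p, at 0.011 from limma, with 109 and 135 RPKM in the neck nodes and 7.39 and 10.0 in the thymus. LFA-1, CD43 and ICAM-1 are also made by myeloid cells. Macrophage markers did not follow the neutrophil markers. Of 11 tested by site 4 had a positive log2 fold change, and 5 were lower in both neck node tumors and 1 higher. Over all genes 12.6% did not overlap with neck node lower. Of 13 T and NK cell markers 11 were positive by site, and 1 was higher in both neck node tumors. The part of these cell types in the 4 differences was not tested. The mice with neck node tumors were also older (16 and 18 weeks against 10), so site and age cannot be told apart.

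**Figure D4:**
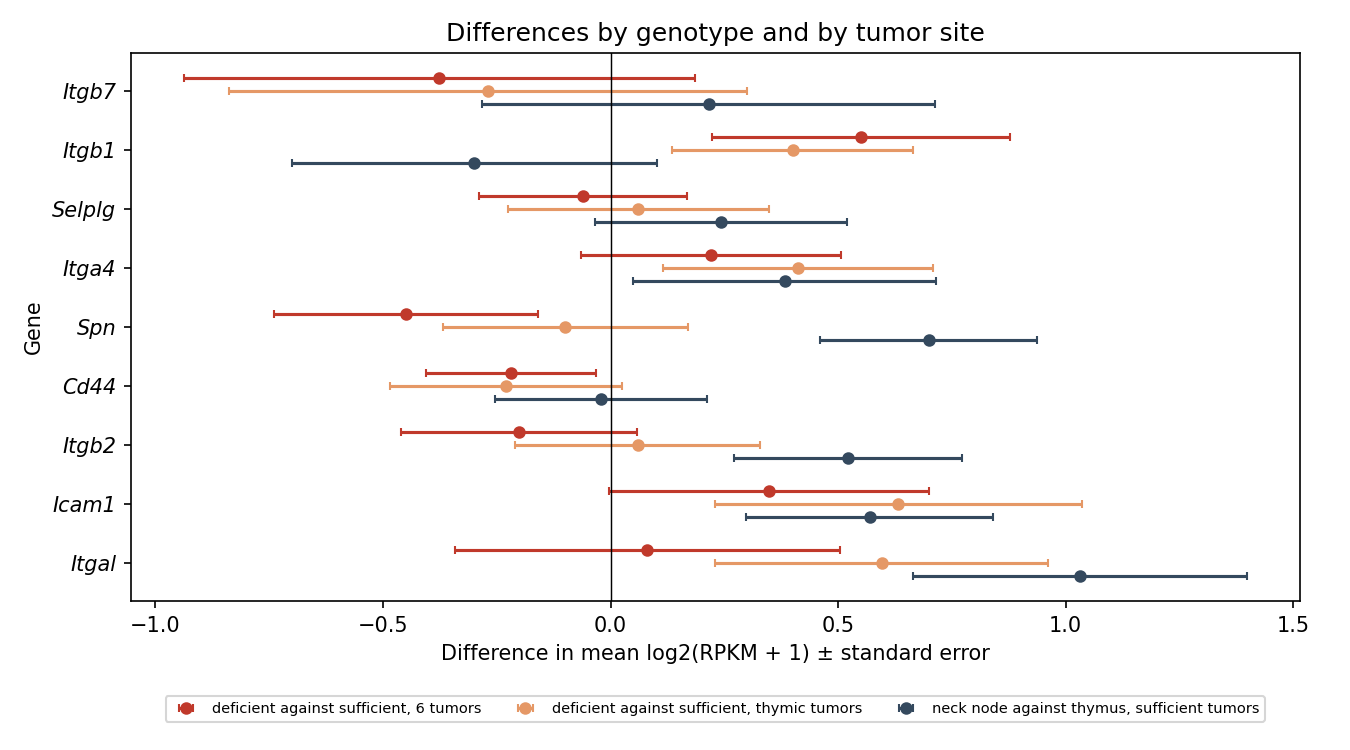
Difference in mean log2(RPKM + 1) ± standard error from limma for each adhesion gene, by genotype over 6 tumors (red), by genotype over thymic tumors (orange) and by tumor site within the sufficient tumors (dark). The genotype values lie between -0.45 and 0.63, and the highest site values are those of Itgal at 1.03 and Spn at 0.70.

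Among the lists of related genes, 0 members passed the test by genotype in any list. The other integrin subunits, 11 of 21 tested, showed a median of -0.18 on the log2 scale, with 4 positive. Their highest levels were those of Itga6, the laminin receptor chain, at a mean of 6.23 RPKM, and of Itgam, the αM chain of myeloid cells, at 3.21. Itga6 read 5.05 to 6.81 in the sufficient and 5.61 and 9.14 in the deficient tumors. In Itga9, another partner of β1, the groups did not overlap, a gene named after its values were seen: 2.63, 1.67, 3.09 and 6.32 RPKM in the sufficient and 0.375 and 0.929 in the deficient tumors (log2 fold change -1.34, limma adjusted p = 0.893). It was the only 1 of the 11 without overlap. Over all tested genes 2.09% did not overlap with the deficient tumors lower.

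Of the selectins and counter-receptors of the immunoglobulin family, 8 of 18 genes were tested, with a median log2 fold change of -0.17. Cd48, a partner of CD2 and the highest gene of the list, read 66.0 to 102 RPKM in the sufficient and 82.4 and 48.3 in the deficient tumors. Cd2 read 12.7, 33.4, 54.4 and 76.5 RPKM in the sufficient tumors and 31.4 and 33.3 in the deficient ones, which fell inside that range. T cells and NK cells also carry CD2. Their markers summed to 33.8 to 86.8 RPKM in the sufficient and 21.2 to 24.8 in the deficient tumors. All 13 tested markers had a negative log2 fold change, and for 3 the groups did not overlap with the deficient tumors lower. Over all tested genes 67.65% were positive and 2.09% did not overlap in that direction. The part of T and NK cells in the Cd2 values was not tested.

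Vcam1, the ligand of α4β1 and named after its values were seen, read 1.84, 2.63, 2.23 and 3.03 RPKM in the sufficient tumors and 4.12 and 11.2 in the deficient ones. The groups did not overlap (log2 fold change 1.22, limma adjusted p = 0.893). Of 12 tested macrophage markers 11 had a positive log2 fold change, and for 6 the groups did not overlap with the deficient tumors higher, where over all tested genes 67.65% were positive and 9.15% did not overlap in that direction. C1qa, named after its values were seen, was at 4.71 to 15.1 against 22.9 and 27.7 RPKM. The macrophage markers' sum was 132 to 305 RPKM in the sufficient and 229 to 279 in the deficient tumors. Most of that sum was Lyz2 in every tumor, at 93.3 to 271 RPKM in the sufficient and 139 and 149 in the deficient tumors. The sum therefore says little about the other markers. Endothelial markers summed to 7.48 RPKM or less in every tumor. Fibroblast markers summed to 3.37 to 13.1 RPKM in the sufficient tumors and to 9.20 and 21.2 in deficient replicates 1 and 2, and all 4 that were tested had a positive log2 fold change. The part of these cell types in the Vcam1 values was not tested.

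Of the 19 genes whose products switch integrins on or anchor them, 16 were tested, with a median log2 fold change of -0.0095. Rap1b, a small GTPase that signals to integrins, read 73.8 to 97.6 RPKM in the sufficient tumors and 90.2 and 81.8 in the deficient ones. Fermt3, the kindlin of blood cells, read 51.3 to 86.5 and 67.4 and 74.4. In Vcl, which encodes vinculin at the actin end of adhesions and is named after its values were seen, the groups did not overlap. It read 4.84, 6.998, 4.39 and 3.55 RPKM in the sufficient and 9.25 and 8.91 in the deficient tumors (log2 fold change 0.79, limma adjusted p = 0.893). Vcl was the only 1 of the 16 without overlap, where over all tested genes 9.15% did not overlap with the deficient tumors higher.

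CD44, CD43 and PSGL-1 are tied to the actin cortex by the ERM proteins. All 7 genes of that list were tested and the groups overlapped for all 7. Groups overlapped for most tested genes, as 9.15% did not overlap with the deficient tumors higher and 2.09% with them lower. Ezr, which encodes ezrin, averaged 127 RPKM and Msn, which encodes moesin, averaged 120. Ezr read 119 to 143 in the sufficient tumors and 122 and 119 in the deficient ones.

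Genes that glycosylate selectin ligands, 11 of 15 tested, had overlapping groups throughout and a median of -0.051. Overlap was the usual case, since over all tested genes only 9.15% did not overlap with the deficient tumors higher and 2.09% with them lower. B4galt1, a galactosyltransferase, averaged 22.4 RPKM, with 59.4 in sufficient replicate 4 and 12.6 to 16.7 in the other 5 tumors. Tpst1, which sulphates tyrosines such as those of PSGL-1, averaged 21.5. In the hyaluronan list 3 of 8 genes were tested. Hmmr, a hyaluronan-binding protein also known from the mitotic spindle, averaged 16.3 and the hyaluronidase gene Hyal2 averaged 5.01. The hyaluronan synthase genes Has1, Has2 and Has3 were at 0.386 RPKM or less in every tumor. Of the 5 sheddase genes, the proteases that cut CD44 and other proteins from the surface, Adam10 averaged 30.4 and Adam17 13.3, and the groups overlapped for all 5. By tumor site no gene of these 7 lists passed the test, and Mmp9, a protease of neutrophil granules named after its values were seen, came nearest (log2 fold change 2.26, limma adjusted p = 0.079).

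Genes whose profile over the 6 tumors was most like that of Cd44 or Spn were ranked by the root mean square difference between profiles of log2(RPKM + 1), each centred on its mean. For Cd44 these were Gm12355 (0.0402), Tcp1 (0.0514) and Gm13181 (0.0521). Tcp1, a subunit of the cytosolic chaperonin, read 130, 129, 124 and 134 RPKM in the sufficient and 111 and 117 in the deficient tumors. The other two stayed under 2.6 RPKM. For Spn the nearest were Sept5 (0.0989), Nfe2 (0.105) and 2210020M01Rik (0.108). All 3 stayed under 1.4 RPKM and were highest in the neck node tumors, with Sept5 at 0.797 and 1.15 RPKM there and 0.110 to 0.294 in the 4 thymic tumors. Likeness over 6 tumors is a description, and the compared profiles share their libraries.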

How the data were processed

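RNA from 6 tumors was sequenced as single-end libraries, with 2 technical replicates per tumor. The authors aligned the reads to the mouse genome and tested counts with DESeq. GRCm38 (mm10), STAR 2.3.0, HTSeq 0.5.4p3 and DESeq 1.12.1 are named in the submitters' processing notes. The deposited values are RPKM, 1 per gene and tumor, and no counts were used here. How the technical replicates were merged is not given in the sources used here. DESeq2 and edgeR, which need counts, were therefore not applied.

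Genes at 0.5 RPKM or more in no fewer than 2 tumors entered the test, on log2(RPKM + 1) with limma 3.58.1 (R 4.3.3), empirical Bayes with trend, two-sided, Benjamini-Hochberg adjusted over all genes. The test was tested on simulated data. Ratios and single genes were compared with exact permutation tests over all 15 splits (Python 3.11.15, NumPy 2.4.6). Nothing in the labels gives separate cultures or litters, so p-values measure only the spread between these tumors.

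Low values multiplied by exon length fell on 2 steps per library, from 0.0134 to 0.0441 RPKM times kilobases per read. By this estimate, which rests on GENCODE M21 exon lengths, about 240 reads lay behind the lowest value of Itgal (counting error 6.4%), and at least about 1150 behind every value of the other adhesion genes (at most 2.9%). These errors cover counting only.

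Named genes were the 9 adhesion genes, listed genes past the threshold, the 2 highest genes of each pathway list, and the 3 genes most like Cd44 and Spn. Other genes are said to be named after their values were seen. The members and lists were chosen with earlier results of these data known. Some genes that fall under these rules are left out here. Where a symbol had 2 rows, the protein-coding one was used. The plasma cell, dendritic cell, fibroblast and erythroid lists were also summed (in order, 32.9 to 61.6, 1.34 to 6.34, 3.37 to 21.2 and 14.7 to 196 RPKM over the tumors), and none of their genes passed either test.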

Additional observations from a re-analysis of the deposited data

How the results depend on the processing

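The count of adhesion genes past the threshold was 0 by genotype and by tumor site under all 28 alternatives, which changed the filter, the pseudocount, the scaling, the threshold, the trend, the tumors included and the covariates. Direction held in 217 of 234 single fold changes and in 31 of 35 ratios. Part of the count for fold changes was fixed in advance. Changing the filter or the trend leaves each fold change as it was. Site as a covariate repeats the fold changes of thymic tumors only. By genotype, Itgal turned to -0.057 under median-ratio scaling, -0.052 under quantile normalization and -0.43 with the replicate block. Itgb2 turned to 0.060 and Selplg to 0.061, both with thymic tumors only and with site as a covariate. Leaving out 1 tumor at a time moved Selplg between -0.20 and 0.0032, Itgal between -0.22 and 0.33, Icam1 between -0.18 and 0.87 and Itgb7 between -1.34 and 0.58. The same omissions kept the sign of Itgb2 (-0.34 to -0.058), Itga4 (0.061 to 0.39), Spn (-0.59 to -0.30) and Itgb1 (0.31 to 0.69) but moved them by over 1.5 times. So it was for the ratios of Itgal to Itgb2 (0.020 to 0.63), Cd44 to Spn (0.10 to 0.38) and Itga4 to Itgb1 (-0.50 to -0.13). By tumor site, leaving out 1 tumor moved Cd44 between -0.090 and 0.046, Itgb1 between -0.88 and 0.28, Itgb7 between -0.59 and 1.02 and Selplg between -0.047 and 0.53. With thymic tumors only, the log2 ratio difference of Itga4 to Itgb1 was 0.026 and that of Cd44 to Spn -0.14. Leaving out 1 tumor moved Itga4 to Itgb7 between -0.44 and 1.70 and Itgb1 to Itgb7 between -0.18 and 2.10. The cause of these turns was not tested.

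The replicate block joins tumors that share only a number (correlation of deviations 0.019 and 0.213). Sufficient replicates 3 and 4 have no deficient partner in it. Its fold changes therefore set the thymic deficient tumors against sufficient replicates 1 and 2 alone, both neck node. They were -0.21 for Cd44, -0.80 for Spn and -0.43 for Itgal. The block left 1 gene called of all tested, against 8. Other counts over all genes that moved by over 1.5 times were 3 by genotype with thymic tumors only or site as a covariate, 4 with the stricter filter, 4 without sufficient replicate 3 and 5 without either deficient replicate. By tumor site the count of 19 became 0 without a filter, 11 under quantile normalization, 32 at a threshold of 0.1, and 32, 67 and 11 without sufficient replicates 1, 2 and 4. Where a group was left with 1 tumor, that tumor was assumed to vary like the others. The small number of tumors limits all of these comparisons.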

Other observations

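The extremes of the 9 adhesion genes were spread over the tumors. Sufficient replicate 1 held the highest Itgal, Itgb2 and Selplg and the lowest Itgb1, and sufficient replicate 2 the highest Cd44, Spn, Itga4 and Itgb7. Deficient replicate 2 held the highest Icam1 and Itgb1 and the lowest Itgb2 and Itgb7. In that tumor the B-cell marker Ebf1 read 3.67 RPKM, where the other 5 tumors read 9.17 to 15.5. The values in these paragraphs were picked out after they were seen. Cd22, a B-cell lectin that restrains receptor signals, read 41.1 to 69.9 RPKM in the sufficient tumors, and deficient replicates 1 and 2 stood above them at 86.7 and 105 (log2 fold change 0.96, limma adjusted p = 0.893). It was the only 1 of the 8 B-cell markers whose groups did not overlap. Over all tested genes 9.15% did not overlap with the deficient tumors higher. Of the 8 markers 4 had a positive log2 fold change, and their median was 0.016.

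Sufficient replicate 4 read highest of the 6 in several genes around the adhesion receptors. It held 59.4 RPKM of B4galt1, 6.32 of Itga9, 4.84 of Itgb3 and 4.14 of Itga5, the fibronectin receptor chain, where the other 5 tumors held at most 0.932 of Itga5. It also held the lowest Itgal (1.35) and the lowest Itga4 (12.8).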
